A study of Mus musculus with 6 samples.

Results

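Clec12a is an inhibitory C-type lectin receptor on the surface of myeloid cells. The tyrosine of its cytoplasmic motif, once phosphorylated, can bring phosphatases to the membrane. The levels of 4 genes were followed here in mouse leukaemia-type cells with and without a Clec12a-directed guide RNA: Clec12a itself, Ptpn6 (SHP-1), Ptpn11 (SHP-2) and Inpp5d (SHIP1). They were taken by gene symbol from a table of 21515 genes, and all 4 were present and passed the filter on low values.

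The cells were C57BL/6 mouse bone marrow cells transformed by NUP98-NSD1, a fusion protein of acute myeloid leukaemia, together with the active RAS mutant NRASG12D, and both groups carried these. Cas9, a guide RNA and the red reporter dTomato were delivered on 1 lentiviral vector. The knockout group received the T44 guide against Clec12a (3 libraries, replicates 1, 4 and 5). The control group received a guide against bacterial lacZ, which has no target in mouse cells (3 libraries, replicates 6, 8 and 9). Single cells were sorted and grown up for RNA isolation, so differences between clones are part of the spread, and the labels leave unsaid whether each library is 1 clone. All libraries shared the same culture: 48 hours in medium holding 15% serum and a mix of cytokines (20 ng/mL murine SCF, 6 ng/mL murine IL-3 and 10 ng/mL human IL-6), per the labels' protocols. The p-values below set differences between the groups against the spread between these libraries.

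As background, inhibitory receptors of this kind work against kinase signalling. Src family kinases phosphorylate a tyrosine in a short stretch known as the immunoreceptor tyrosine-based inhibitory motif (ITIM), which then serves as a docking site for SH2 domains. SHP-1 and SHP-2 are protein tyrosine phosphatases with paired SH2 domains. SHP-1 is found mainly in blood cells and mostly dampens signals, while SHP-2 is made in nearly all cells and also helps growth factor receptors to activate RAS. SHIP1 is a blood-cell lipid phosphatase that removes the 5-phosphate from the PI3-kinase product PIP3 and so limits AKT and BTK recruitment.

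The SH2 domains and the lipid phosphatase domain of SHIP1 are not shown here. Coding stretches are shown for the ITIM of Clec12a, the catalytic signature of SHP-1 and SHP-2, and the adaptor-binding motifs of SHIP1. They were read from the principal GENCODE M21 transcript of each gene (GRCm38, the same assembly as mm10) and are written 5′ to 3′ on the coding strand, with the motif codons in capitals. In the principal Clec12a transcript the first match to an ITIM covers codons 5 to 10, in exon 1 of 6, within chr6:129350421-129350465 on the plus strand. This is the cytoplasmic end of the receptor, whose amino terminus lies inside the cell. The same loose pattern matched 5 times in the whole coding sequence of 801 bases. The later matches cover codons 63 to 68, 143 to 148, 180 to 185 and 185 to 190. Only the first, at the cytoplasmic end, is taken as the ITIM and shown.
Clec12a ITIM codons: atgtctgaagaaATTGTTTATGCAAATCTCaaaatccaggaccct

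For the SHP phosphatases the capitals mark the signature of the catalytic pocket, which holds the cysteine that attacks the phosphate. In both genes it is split between exons 11 and 12 of 16, on the minus strand, within chr6:124722048-124724979 for Ptpn6 and chr5:121143599-121144552 for Ptpn11, and the stretches are shown spliced. Of the 24 signature bases, 20 were identical between the genes, and the translated proteins of 595 and 597 residues were 57.8% identical over 573 aligned positions.
Ptpn6 signature codons: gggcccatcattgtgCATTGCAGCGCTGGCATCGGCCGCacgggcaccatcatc
Ptpn11 signature codons: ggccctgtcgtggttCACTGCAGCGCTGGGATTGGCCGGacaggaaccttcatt

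For Inpp5d the capitals mark the codons of its 2 NPXY motifs, tyrosine sites that bind the adaptors SHC and DOK once phosphorylated. They lie on the plus strand in exons 25 and 26 of 27, within chr1:87715063-87715104 and chr1:87717748-87717789.
Inpp5d first motif: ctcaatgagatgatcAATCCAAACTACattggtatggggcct
Inpp5d second motif: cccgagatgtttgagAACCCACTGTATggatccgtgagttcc

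The deposited values are FPKM (fragments per transcript kilobase, adjusted for sequencing depth), which correct for gene length and so allow genes to be set against each other. The FPKM of all genes summed to between 590211 and 699113 in the knockouts, against between 534440 and 554534 in the controls, so this sum moved with the group. Estimated depth was 33600000 to 51100000 fragments in knockout libraries and 45300000 to 60900000 in controls. Of 14 early myeloid markers, 12 reached 1 FPKM in at least 1 library, and their summed level was 5718 to 10543 FPKM in knockout libraries and 3993 to 6732 FPKM in controls. Elane, Prtn3 and Ly6c2 carried most of that sum, and other members of the list went the other way. Mpo, the myeloperoxidase gene, was at 0.289, 1.20 and 9.36 FPKM in knockout replicates 1, 4 and 5 and at 455, 737 and 10.2 FPKM in control replicates 6, 8 and 9. Kit, the stem cell factor receptor gene, was at 0.736, 1.18 and 6.66 FPKM in knockout replicates 1, 4 and 5 and at 27.6, 8.03 and 0.715 FPKM in control replicates 6, 8 and 9. The progenitor markers Cd34 and Flt3 did not reach 1 FPKM in any library. No T, B or NK cell marker in the table did either. The T cell markers summed to 0.308 to 0.682 FPKM in knockout libraries and 0.0576 to 0.130 FPKM in controls. Of 5 stroma and endothelium markers only Pecam1 was above 1 FPKM, a gene that myeloid cells also express. Of the 4 megakaryocyte markers, only Pf4 reached 1 FPKM in any library. Klf1, an erythroid transcription factor gene, was at 1.12, 1.65 and 0.539 FPKM in knockout replicates 1, 4 and 5 and at 0.351, 0.281 and 0.340 FPKM in control replicates 6, 8 and 9. The part of these marker differences in the results below was not tested. In bulk RNA, fewer cells of a type and less RNA per cell cannot be told apart.

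The 4 genes differed widely in level, and all had lower means in knockout cells, though none passed the test. Ptpn6 was the most abundant by mean, then Clec12a, then Inpp5d, and Ptpn11 was the least abundant in every library. Ptpn6 was above Clec12a in 5 of 6 libraries, the exception being control replicate 9. On the log2 scale the differences between knockout and control cells were -0.79 for Clec12a, -0.69 for Inpp5d, -0.39 for Ptpn11 and -0.18 for Ptpn6. None reached an adjusted p under 0.05 (limma, Benjamini-Hochberg over 9830 tested genes), against 1.9% of all tested genes in either direction and 0.519% in the lower direction. A negative value was common: 54.0% of tested genes had one, with a median of -0.06 over all tested genes and the middle range from -0.41 to 0.32 (quartiles).

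Clec12a, the targeted gene, lies on chromosome 6 from 129342691 to 129365303 on the plus strand. It was measured at 170, 129 and 94.5 FPKM in knockout replicates 1, 4 and 5, against 157, 246 and 280 FPKM in control replicates 6, 8 and 9. Knockout replicate 1 was above control replicate 6, so the groups overlapped, and 2 of 3 knockout libraries lay below the lowest control. On average the knockouts reached 57.5% of the control level (131 ± 37.6 FPKM in knockout and 228 ± 63.7 FPKM in control libraries, SD, n = 3 each). The transcript remained abundant in knockout cells: among all genes it ranked 696, 1028 and 1227 from the top in knockout replicates 1, 4 and 5, and 704, 392 and 319 in control replicates 6, 8 and 9. This gave a log2 fold change of -0.79 (SE 0.29, 95% interval -1.45 to -0.13, limma adjusted p = 0.130), and the exact permutation p (two-sided) was 0.2, with 0.1 the lowest value possible for 3 libraries in each group. Its unadjusted p was 0.0237, and 27.9% of tested genes had one under 0.05 in either direction (15.9% in the lower direction). FPKM sums fragments over the whole gene, so a short insertion or deletion at a guide's cut site need not lower it, and the level does not check the genotype.

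Ptpn6 encodes SHP-1 and lies 4.6 Mb from Clec12a on the same chromosome, from 124720707 to 124738714 on the minus strand. It was measured at 215, 291 and 290 FPKM in knockout replicates 1, 4 and 5, against 339, 285 and 272 FPKM in control replicates 6, 8 and 9. Knockout replicates 4 and 5 lay within the range of the controls, and replicate 1 was the lowest of the 6 libraries. The means were 265 ± 43.9 FPKM in knockout and 299 ± 35.2 FPKM in control libraries (SD, n = 3 each), with a log2 fold change of -0.18 (SE 0.21, 95% interval -0.65 to 0.30, limma adjusted p = 0.589). The interval reaches from a clear fall to a modest rise. Of its exon bases, 6.96% overlap the gene model Gm20531 on the opposite strand, and since the use of strand in counting is not stated, part of the signal could belong to that model.

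Ptpn11, the gene of SHP-2, lies on chromosome 5 from 121130533 to 121191397 on the minus strand. It stood at 13.9, 11.1 and 11.4 FPKM in knockout replicates 1, 4 and 5, against 18.1, 13.8 and 16.9 FPKM in control replicates 6, 8 and 9. The groups overlapped by a narrow margin, as knockout replicate 1 and control replicate 8 were nearly equal. The means were 12.1 ± 1.53 FPKM in knockout and 16.3 ± 2.21 FPKM in control libraries (SD, n = 3 each), with a log2 fold change of -0.39 (SE 0.21, 95% interval -0.86 to 0.08, limma adjusted p = 0.242).

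Inpp5d, the gene of SHIP1, lies on chromosome 1 from 87620312 to 87720507 on the plus strand. It stood at 24.5, 14.4 and 25.9 FPKM in knockout replicates 1, 4 and 5, against 38.5, 31.4 and 34.0 FPKM in control replicates 6, 8 and 9. It was the only one of the 4 genes whose groups did not overlap, a pattern that 36.3% of all tested genes showed in either direction and 21.8% in the lower direction. On average the knockouts reached 62.4% of the control level (21.6 ± 6.27 FPKM in knockout and 34.6 ± 3.59 FPKM in control libraries, SD, n = 3 each). This gave a log2 fold change of -0.69 (SE 0.25, 95% interval -1.26 to -0.13, limma adjusted p = 0.127), and the exact permutation p was 0.1, the smallest this design allows. Knockout replicate 4 was the lowest library by a wide margin, and without it the log2 fold change was -0.44 (SE 0.16, limma adjusted p = 0.188).

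**Figure D1:**
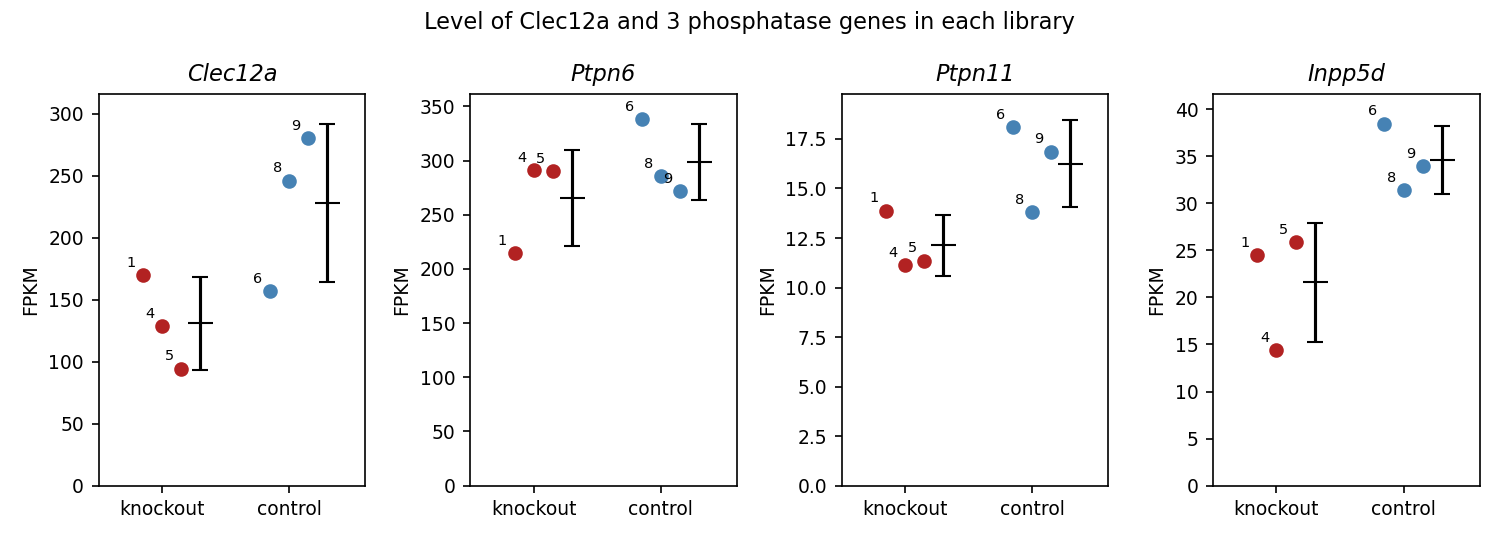
FPKM of the 4 genes (vertical axes from 0) in each knockout (red) and control (blue) library, with replicate numbers; black marks are the mean ± SD of 3 libraries. Clec12a, Ptpn6 and Ptpn11 overlap between the groups, while the highest knockout value of Inpp5d (25.9 FPKM) is below its lowest control value (31.4 FPKM).

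Spread within a group differed by gene. For Clec12a the coefficient of variation was 28.8% in knockout and 28.0% in control libraries, so the receptor varied as much among controls as among knockouts. For Inpp5d it was 29.1% in knockout and 10.4% in control libraries, the wider spread coming from replicate 4. For Ptpn6 it was 16.5% in knockout and 11.8% in control libraries, and for Ptpn11 12.6% in knockout and 13.6% in control libraries. The 4 genes did not rank the libraries alike: among knockouts, replicate 1 was highest for Clec12a and Ptpn11 but lowest for Ptpn6, and among controls, replicate 6 was lowest for Clec12a and highest for the 3 phosphatase genes.

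Ratios within a library were compared because a scaling factor of the library largely cancels in them. Ptpn6 exceeded its relative Ptpn11 by 15.5, 26.2 and 25.6 times in knockout replicates 1, 4 and 5 and by 18.7, 20.7 and 16.1 times in control replicates 6, 8 and 9. The SHP-1 transcript was therefore the dominant SHP transcript in all 6 libraries. Clec12a stood at 0.790, 0.441 and 0.326 times Ptpn6 in the knockout libraries and at 0.463, 0.862 and 1.03 times in the controls. Ptpn6 to Inpp5d ratios were 8.78, 20.3 and 11.2 in the knockout libraries and 8.80, 9.10 and 8.01 in the controls, which lay close together. On the log2(FPKM + 1) scale, the difference between knockout and control cells ran from -0.61 for Clec12a to Ptpn6 up to 0.52 for Ptpn6 to Inpp5d. Both depended on single libraries and on the processing: Ptpn6 to Inpp5d was 0.19 without knockout replicate 4, 0.15 with quantile normalization and 0.21 with a length and GC correction. Clec12a to Ptpn6 was -0.33 without knockout replicate 5, -0.38 without control replicate 9, -0.97 without knockout replicate 1, -0.96 without control replicate 6 and -0.23 with the length and GC correction. None of the 6 ratios separated the groups, with exact two-sided permutation p from 0.2 to 0.7 and 0.45 to 0.7 after Benjamini-Hochberg adjustment over the 6.

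**Figure D2:**
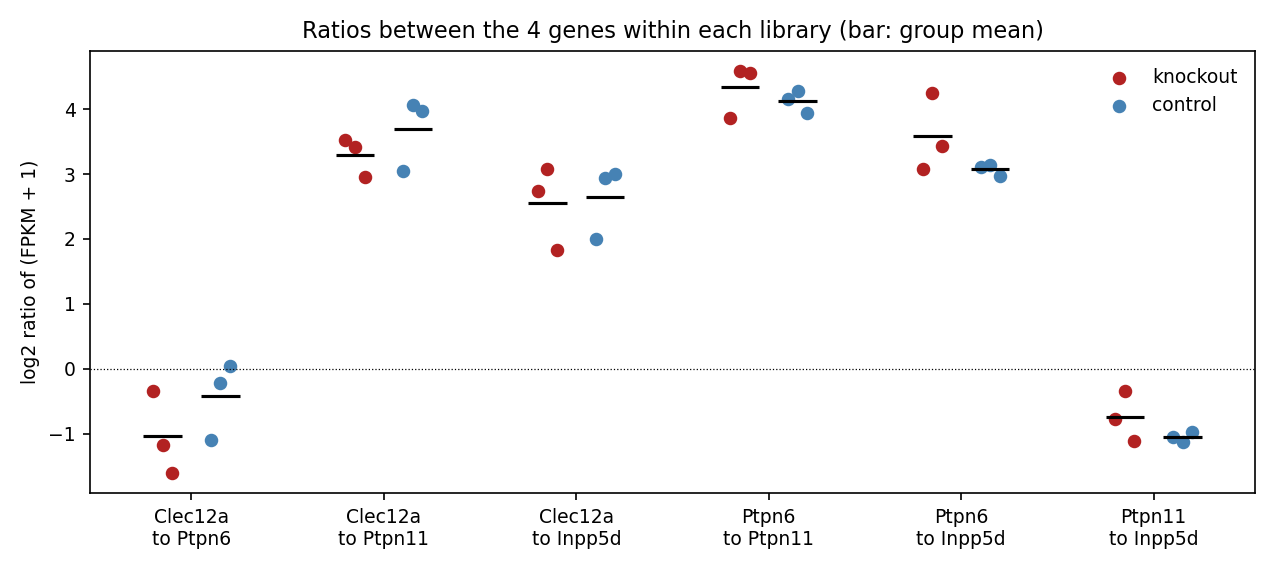
log2 ratios of (FPKM + 1) for the 6 pairs of genes, with 1 point per library, knockout (red) left of control (blue) and bars at the group means. Every pair overlaps between groups; the controls of the Ptpn6 to Inpp5d and Ptpn11 to Inpp5d pairs are tightly grouped (SD 0.09 and 0.08), while their knockouts spread more widely (SD 0.60 and 0.39).

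The lower values of the 4 genes kept their direction under all 17 alternative settings, but their sizes moved. The other filters, and limma without the trend or with a robust prior, reused the same log2 values. These could change a p-value but not a fold change, so they say nothing about direction. Scaling libraries to equal totals shifted the median of all tested genes to -0.24 and gave -0.99 for Clec12a, -0.89 for Inpp5d, -0.58 for Ptpn11 and -0.38 for Ptpn6. Removing the trends of each library with transcript length and with GC content gave -0.57 for Clec12a, -0.55 for Inpp5d, -0.34 for Ptpn6 and -0.16 for Ptpn11. With limma's array weights, Clec12a (-0.66, adjusted p = 0.0342) and Inpp5d (-0.41, adjusted p = 0.0416) passed, but so did 42.3% of all tested genes, and 23.1% passed in the lower direction. Those weights ran from 0.207 for knockout replicate 4 to 7.21 for control replicate 8, so that fit leaned on few libraries.

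**Figure D3:**
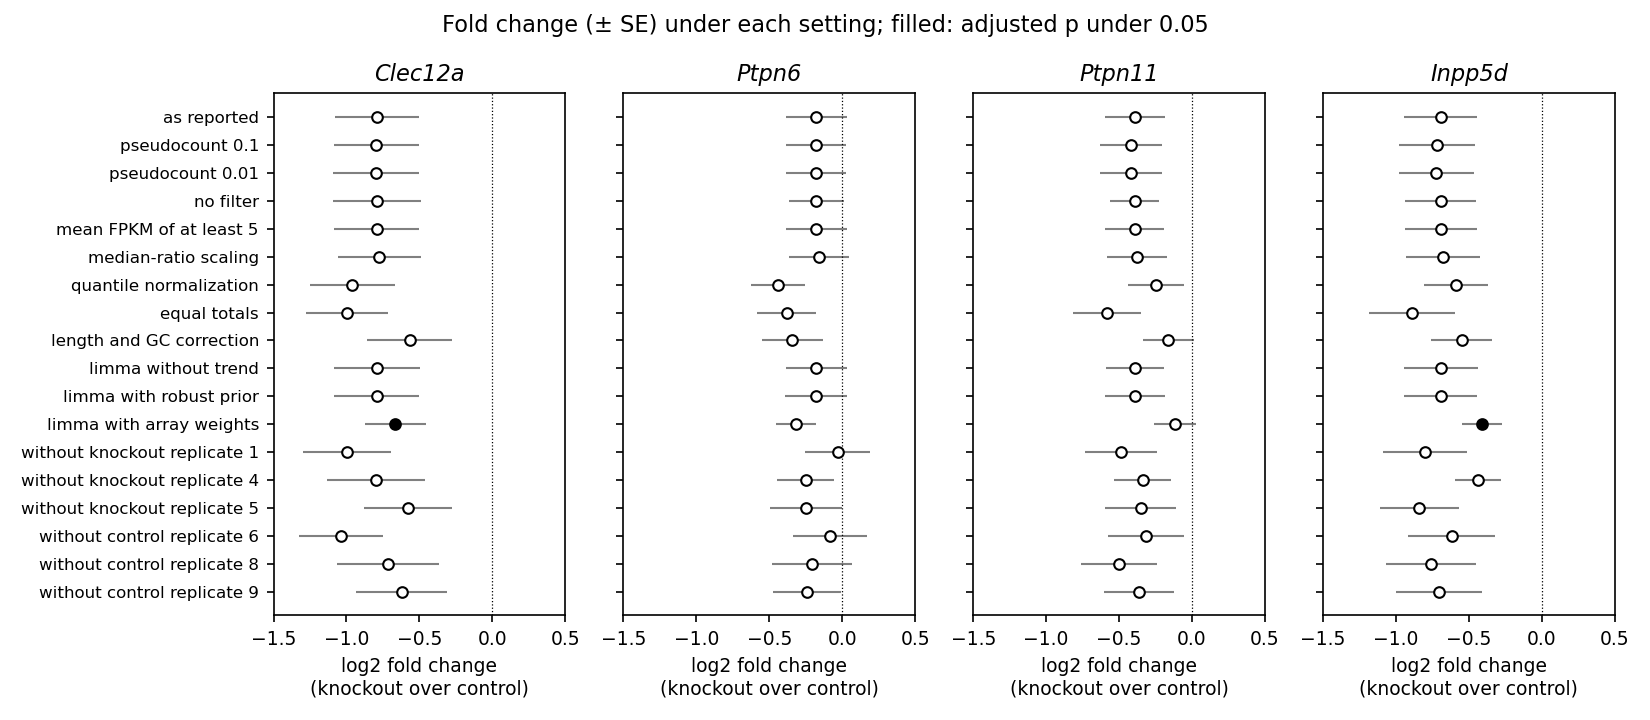
log2 fold change (knockout over control, horizontal axes, ± SE) of each gene as reported and under 17 alternative settings; filled points have an adjusted p under 0.05. All points lie below 0, and the only filled ones are Clec12a and Inpp5d with array weights.

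Around Clec12a, no tested neighbour passed the test. Of 25 genes of the table within 500 kb, most of them C-type lectin and killer lectin-like receptor genes, 6 passed the filter, and none of these rose or fell (background 1.38% and 0.519%). Their median log2 fold change was -0.39, with 4 of 6 negative, against 54.0% of all tested genes. Cd69, an activation marker of leukocytes and the nearest tested gene on the upstream side, was at 20.7, 16.7 and 22.7 FPKM in knockout replicates 1, 4 and 5 and at 52.2, 43.3 and 22.4 FPKM in control replicates 6, 8 and 9 (log2 fold change -0.87, SE 0.31, limma adjusted p = 0.125). Control replicate 9 lay among the knockouts, and without it the log2 fold change of Cd69 was -1.22 (limma adjusted p = 0.0473). It was -0.62 without control replicate 6 (limma adjusted p = 0.308) and -0.38 with the length and GC correction (limma adjusted p = 0.365). Olr1, a receptor for oxidised lipoprotein and the nearest tested gene downstream, was at 6.24, 7.42 and 8.69 FPKM in the 3 knockouts and at 11.1, 13.4 and 12.8 FPKM in the 3 controls. Its groups did not overlap, which also held for 36.3% of tested genes in either direction and for 21.8% in the lower direction. Olr1 did not pass (log2 fold change -0.67, SE 0.21, limma adjusted p = 0.103). Clec12b, the next C-type lectin gene downstream, was at most 0.0442 FPKM in any library, and Clec1a, Clec1b and Clec9a were all below 1 FPKM.

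**Figure D4:**
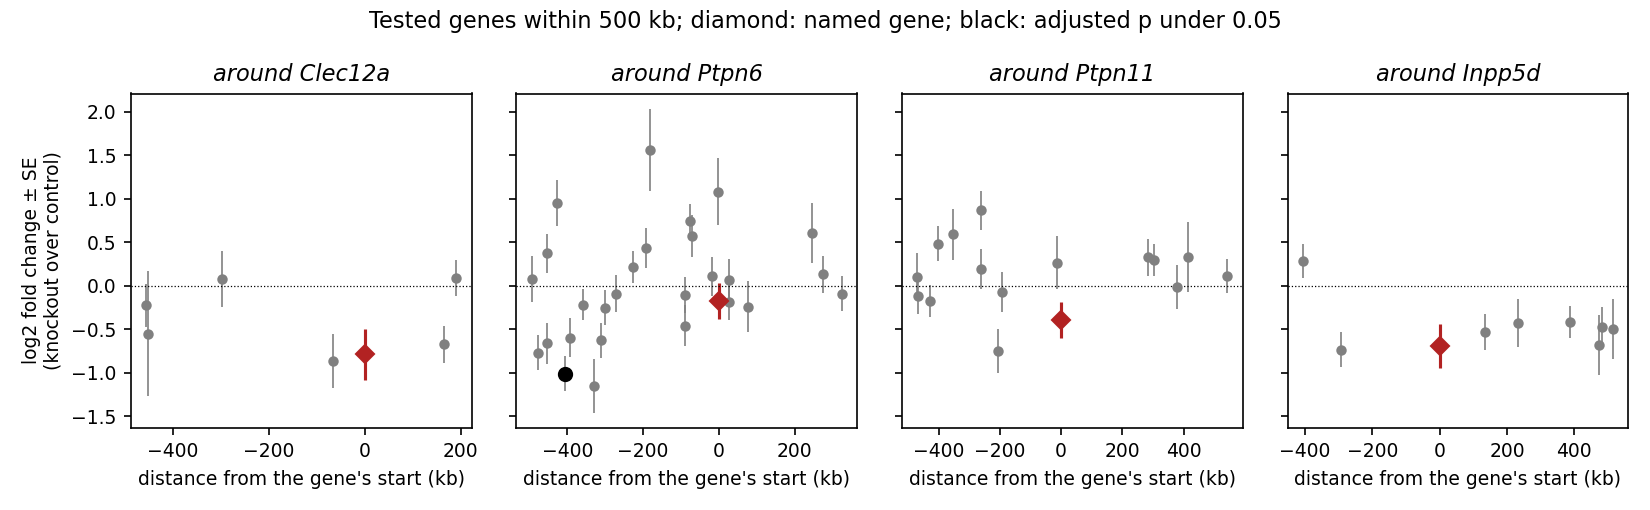
log2 fold change ± SE (knockout over control) of tested genes within 500 kb of each of the 4 genes, by distance of their start from that gene's start in kb, downstream to the right; diamonds are the 4 genes. Black points have an adjusted p under 0.05, and Iffo1 near Ptpn6 is the only one.

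Genes that work with the receptor and its phosphatases were counted by role. Few passed the test, as did few of all tested genes (1.9% in either direction). At that share, lists of this size would hold few or no calls. Upstream, none of 9 tested Src family kinase and regulator genes rose or fell (background 1.38% higher and 0.519% lower). Their median was 0.07. Lyn, a kinase that phosphorylates ITIMs, was at 46.6, 39.2 and 58.3 FPKM in knockout replicates 1, 4 and 5 and at 44.6, 41.1 and 61.6 FPKM in control replicates 6, 8 and 9, with a log2 fold change of -0.03 whose sign turned in 5 of 17 alternatives. Ptprc, the phosphatase CD45 that activates Src kinases, was at 78.3, 31.1 and 93.9 FPKM in the 3 knockouts and at 90.5, 133 and 112 FPKM in the 3 controls (limma adjusted p = 0.189). As for Inpp5d, knockout replicate 4 was the lowest.

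On the activating side that such receptors oppose, 1 of 15 tested SYK pathway genes rose and none fell, with a median of -0.18 (background 1.38% higher and 0.519% lower). That gene was Lcp2, which encodes the adaptor SLP-76, at 185, 139 and 179 FPKM in knockout replicates 1, 4 and 5 and at 82.2, 87.5 and 84.3 FPKM in control replicates 6, 8 and 9 (log2 fold change 0.97, SE 0.18, limma adjusted p = 0.0444). It passed by a narrow margin and lost the call in 10 of 17 alternatives: when any 1 library was left out (adjusted p 0.0528 to 0.198), with a pseudocount of 0.01 (0.0517), with quantile normalization (0.0586), with equal totals (0.0744) and without the filter (0.0871). The ITAM adaptor genes were among the most abundant of the list. Fcer1g was at 855 ± 178 FPKM in knockout and 463 ± 58.4 FPKM in control libraries (limma adjusted p = 0.0835), and Tyrobp at 908 ± 299.8 FPKM in knockout and 685 ± 231 FPKM in control libraries (limma adjusted p = 0.413).

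Among adaptors that bind SHP-1, SHP-2 or SHIP1, none of 13 tested genes rose or fell (background 1.38% higher and 0.519% lower). Their median was -0.27. Shc1, whose product binds the phosphorylated NPXY motifs of SHIP1 shown above, was at 48.0, 28.8 and 53.1 FPKM in knockout replicates 1, 4 and 5 and at 60.8, 63.8 and 62.5 FPKM in control replicates 6, 8 and 9 (limma adjusted p = 0.174). Its groups did not overlap, as for 36.3% of all tested genes in either direction and 21.8% in the lower direction. Knockout replicate 4 was again lowest. Sirpa, an inhibitory receptor that recruits the SHP phosphatases, was at 46.8 ± 14.1 FPKM in knockout and 80.9 ± 27.0 FPKM in control libraries (limma adjusted p = 0.145).

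Related phosphatases were counted in the same way. Of 9 tested non-receptor tyrosine phosphatase genes besides Ptpn6 and Ptpn11, only Ptpn5 passed the test (background 1.38% higher and 0.519% lower). Ptpn5, a phosphatase known mainly from neurons, was at 1.51, 1.32 and 1.27 FPKM in knockout replicates 1, 4 and 5 and at 0.102, 0.273 and 0.115 FPKM in control replicates 6, 8 and 9 (log2 fold change 1.03, SE 0.18, limma adjusted p = 0.0331). It entered the test only through its knockout values, which alone reached 1 FPKM, so its call had to favour knockout cells and is given as a description. The size depended on the pseudocount (log2 fold change 3.12 with 0.01), and the call was lost when any 1 library was left out (adjusted p 0.0508 to 0.123). Ptpn7, a phosphatase of MAP kinases in blood cells, was at 85.5 ± 11.6 FPKM in knockout and 129.9 ± 23.9 FPKM in control libraries (limma adjusted p = 0.124), and Ptpn2, which acts on JAK kinases, at 51.2 ± 1.67 FPKM in knockout and 49.9 ± 6.30 FPKM in control libraries (limma adjusted p = 0.891). None of 11 tested phosphoinositide phosphatase genes besides Inpp5d changed (median -0.21, background 1.38% higher and 0.519% lower). Inpp5b, another 5-phosphatase, was at 12.8 ± 4.52 FPKM in knockout and 28.5 ± 9.35 FPKM in control libraries (limma adjusted p = 0.0875), and Inpp5k at 13.9 ± 2.68 FPKM in knockout and 16.2 ± 2.83 FPKM in control libraries (limma adjusted p = 0.558). Inppl1, the gene of SHIP2, did not pass the filter on low values. It was at 1.27, 0.107 and 2.03 FPKM in knockout replicates 1, 4 and 5 and at 0.0444, 0.308 and 0.0256 FPKM in control replicates 6, 8 and 9.

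Downstream of the phosphatases, no PI3-kinase, AKT or RAS regulator gene passed (background 1.38% higher and 0.519% lower). Of 16 tested PI3-kinase and AKT genes 12 were negative, against 54.0% of all tested genes (list median -0.34), and the library medians of their deviations from the gene means were 0.01, -0.41 and -0.14 in knockout replicates 1, 4 and 5 and 0.16, 0.16 and 0.19 in control replicates 6, 8 and 9. Knockout replicate 4 thus stood lowest for this list too, and its part in the list's median was not tested. Pik3cg, the catalytic subunit gene downstream of chemoattractant receptors, was at 29.5, 11.9 and 37.2 FPKM in the 3 knockouts and at 32.4, 35.2 and 39.8 FPKM in the 3 controls (limma adjusted p = 0.328), and the adaptor gene Pik3ap1 at 37.5 ± 15.6 FPKM in knockout and 63.5 ± 13.9 FPKM in control libraries (limma adjusted p = 0.160). Of 13 tested genes of RAS, its activators and its GTPase-activating proteins, 10 were positive and 3 negative, against 54.0% negative over all tested genes (list median 0.28). Rasgrp2, a RAP and RAS activator, was at 79.0 ± 28.1 FPKM in knockout and 50.9 ± 24.9 FPKM in control libraries (limma adjusted p = 0.252). Nras, of which these cells also carry an introduced activated form, was at 958, 314 and 904 FPKM in knockout replicates 1, 4 and 5 and at 697, 795 and 766 FPKM in control replicates 6, 8 and 9 (limma adjusted p = 0.751).

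**Figure D5:**
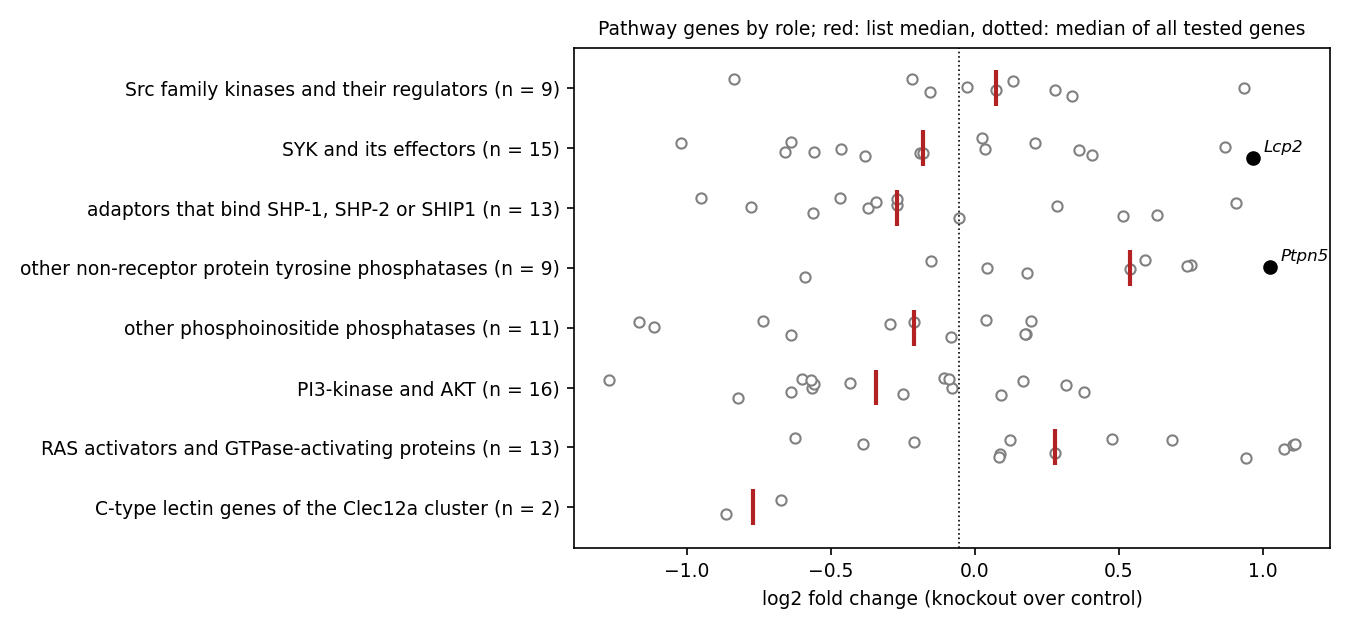
log2 fold change (knockout over control) of tested genes in 8 lists of the pathway, 1 point per gene; red bars are list medians and the dotted line is the median of all tested genes (-0.06). Lcp2 and Ptpn5, in black, have an adjusted p under 0.05; Ptpn5 passed the filter on low values only through the knockouts.

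The genes with the most similar profiles over the 6 libraries were found by the root mean square difference of log2(FPKM + 1) after each gene's own mean was subtracted. For Clec12a these were B230219D22Rik (0.07), 9130008F23Rik (0.15) and Mtfr2 (0.15), against a spread of Clec12a itself of 0.58 (SD over 6 libraries). B230219D22Rik was at 9.08, 6.59 and 4.89 FPKM in knockout replicates 1, 4 and 5 and at 8.37, 12.6 and 17.2 FPKM in control replicates 6, 8 and 9. The libraries stood in the same order for this gene as for Clec12a. For Inpp5d the nearest were Armh3, Sdha and B3glct (0.05 each, against a spread of 0.48). Sdha, a subunit gene of respiratory complex II, was at 115, 64.4 and 111 FPKM in the 3 knockouts and at 163, 138 and 143 FPKM in the 3 controls, with knockout replicate 4 again lowest. For Ptpn11 they were Klhl21 (0.06), Dhx37 (0.06) and Helz (0.07), against 0.27, and for Ptpn6 Zfp113 (0.04), Tomm20 (0.06) and C3 (0.06), against 0.21. With 6 libraries and 9830 genes to choose from, such near matches are a description only.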

How the data were processed

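Bulk RNA-seq was deposited by the authors as 1 table of FPKM per gene symbol for 6 libraries. Column names matched the sample titles, which gave the groups. The submitters' processing notes name mm10, STAR 2.5.2b and FastQC, and leave out the counting tool, annotation, strand use and filters. Count models were not applied, since FPKM are not counts. Depth was estimated from 3825 genes with 1 annotated transcript, whose low values lay within 0.1 of a whole fragment number in 63.4% to 70.3% of cases (chance gives 20%); read numbers could therefore not be recovered, and depths are estimates.

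The 9830 genes that reached 1 FPKM in 3 or more libraries were tested on log2(FPKM + 1) with limma 3.58.1 in R 4.3.3 (lmFit, eBayes with an intensity trend, two-sided, Benjamini-Hochberg over all tested genes, threshold 0.05). Fold changes on this scale understate those of low genes. "Rose", "fell" and "changed" mean past that threshold. Ratios were compared by exact permutation tests (scipy 1.17.1, Python 3.11.15). The limma procedure was checked on simulated data with known changes. It recovered 0 of 67 genes changed 1.5-fold, 13 of 67 changed 2-fold and 48 of 66 changed 4-fold. Of its 63 calls, 2 were false. A gene that was not called may therefore still have changed. The simulation drew each gene independently, without shifts that many genes of a library share. Its false calls therefore do not give the rate of false calls in the real libraries.

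Symbols were matched to GENCODE M21 (GRCm38), with 21414 found by symbol and 1 by an older name, and 100 left unmatched. The 4 genes, the lists and the tests were chosen with earlier results of these data known. Genes named from a list were its members past the threshold and its 2 most abundant tested members; near Clec12a, the nearest tested gene on each side; and the 3 genes nearest in profile to each of the 4. Settings tried were other pseudocounts (0.1, 0.01), filters (none; mean FPKM of at least 5), scalings (median ratios, quantiles, equal totals), a length and GC correction (splines with 4 degrees of freedom), limma variants and leaving out each library. Running them for the other named genes, and the windows around the 3 phosphatase genes, was decided after the data were seen.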

Additional observations from a re-analysis of the deposited data

How the results depend on the processing

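The direction of the 4 genes was the same in all 17 alternatives; the calls changed for Clec12a (-0.66, adjusted p = 0.0342) and Inpp5d (-0.41, adjusted p = 0.0416), both with limma's array weights. Leaving out 1 library gave -1.04 to -0.58 for Clec12a, -0.25 to -0.03 for Ptpn6, -0.50 to -0.32 for Ptpn11 and -0.84 to -0.44 for Inpp5d, with adjusted p from 0.0956 upward. The number of genes called, 187 as reported, was 122 with a pseudocount of 0.01, 97 when a mean of 5 FPKM was required, 23 without the filter, 120 with equal totals, 4154 with array weights, and 20 to 197 when 1 library was left out; the cause was not tested. The Clec12a to Inpp5d ratio reversed without knockout replicate 5 (0.26) and without control replicates 8 (0.05) and 9 (0.08), ranging from -0.42 to 0.26. The Ptpn6 to Ptpn11 ratio reversed with quantile normalization (-0.19) and the length and GC correction (-0.18).

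Among other named genes, Lyn reversed with quantile normalization (0.020), the length and GC correction (0.14), array weights (0.18) and without knockout replicate 4 (0.11) or control replicate 9 (0.14), with a range of -0.17 to 0.14 when 1 library was left out. Nras reversed with the length and GC correction (0.072), array weights (0.18) and without knockout replicate 4 (0.31; range when 1 library was left out -0.49 to 0.31). Ptpn2 reversed with equal totals (-0.16), array weights (-0.040) and without control replicate 9 (-0.063; range up to 0.11). With the length and GC correction Tyrobp (-0.18), Zfp113 (0.14) and Tomm20 (0.17) reversed, and Tomm20 also without knockout replicate 1 (0.069) or control replicate 6 (0.01; range from -0.20 up to 0.069). No paired analysis was possible because the groups share no replicate numbers.

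FPKM gives no counts, so precision rests on 3 libraries a group. The 95% intervals above are not adjusted for the number of genes tested. For Ptpn6 (-0.65 to 0.30) a moderate fall or rise could not be told from none. For Ptpn11 (-0.86 to 0.08) this held for a moderate fall, while only a small rise lay inside the interval. Those of Clec12a and Inpp5d lay below 0, but neither gene passed after adjustment (limma adjusted p = 0.130 and 0.127).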

Other observations

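The same 500 kb window was taken around the 3 phosphatase genes. Near Ptpn6, 27 genes were tested, none rose and 1 fell (background 1.38% higher and 0.519% lower): Iffo1, an intermediate filament family gene, at 2.76, 3.58 and 3.23 FPKM in knockout replicates 1, 4 and 5 and at 7.64, 6.74 and 7.94 FPKM in control replicates 6, 8 and 9 (log2 fold change -1.01, SE 0.20, limma adjusted p = 0.0490). Its groups did not overlap, as for 36.3% of all tested genes in either direction and 21.8% in the lower direction. The call was lost in 12 of 17 alternatives, leaving out any 1 library included (adjusted p 0.0658 to 0.195). Near Ptpn11, none of 15 tested genes changed (median 0.19, against -0.39 for Ptpn11 itself). Near Inpp5d, none of 8 tested genes changed, and 7 of 8 were negative, against 54.0% of all tested genes (window median -0.48, against -0.69 for Inpp5d itself). The negative genes include Ugt1a7c, Ugt1a6b and Ugt1a6a (-0.68, -0.47 and -0.50), which belong to 1 gene family, so the 8 may not be independent. The library medians of those 8 genes' deviations from the gene means were -0.12, -0.51 and -0.15 in knockout replicates 1, 4 and 5 and 0.14, 0.07 and 0.25 in control replicates 6, 8 and 9, so knockout replicate 4 was lowest there as for Inpp5d. Its part in these values was not tested.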
